A study of Homo sapiens with 6 samples.

Results

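Transcripts of 7 clade B serpins, SERPINB1, SERPINB2, SERPINB5, SERPINB6, SERPINB7, SERPINB8 and SERPINB9, were compared between 3 Control sh and 3 VprBP sh samples. The genes were selected by name from a table of 21494 genes measured by RNA-seq, and all 7 are in the table. The labels name the cells as G361, a human melanoma line, and give LD611 as their source. Control sh samples carry a control shRNA and have the genotype WT in the labels, while VprBP sh samples express an shRNA that targets VprBP, which DCAF1 encodes, and have the genotype DCAF1 Knockdown. Knockdown lines were made with a lentiviral vector and puromycin selection, and a single shRNA sequence against VprBP was used. Cells of both groups thus carry an shRNA. No drug, dose or time differs between the samples. The labels do not say whether replicates are separate cultures, so that p-values measure the spread between these samples only. Total counts ran from 18195926 to 26883925 per sample.

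Serpins inhibit proteases by offering an exposed loop as bait. When the protease cuts the loop, the serpin changes shape and traps the enzyme in a covalent complex. Clade B serpins lack a classical secretion signal and act mostly inside cells, where they are known to protect epithelial and blood cells from their own or foreign proteases. The human genes lie in a pair of clusters, on the short arm of chromosome 6 and the long arm of chromosome 18. Several genes of the chromosome 18 cluster, but not all, are known for their expression in stratified epithelia.

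All 7 genes were lower in VprBP sh than in Control sh, from 1.51-fold for SERPINB1 to 3520-fold for SERPINB2 among genes with counts in both groups. SERPINB7, at 0 counts in every VprBP sh sample, was lower by at least 255-fold, so that it cannot be ranked against SERPINB2. The 4 genes on chromosome 18, SERPINB2, SERPINB5, SERPINB7 and SERPINB8, together went from 8871 ± 595 to 108 ± 11.0 normalized counts (SD, n = 3), which left 1.22% of the control level. The 3 genes on chromosome 6, SERPINB1, SERPINB6 and SERPINB9, together kept 49.0% of it, at 3868 ± 188 normalized counts against 7896 ± 482. The sums rest on their most abundant genes, and single genes did not follow the cluster, since SERPINB9 on chromosome 6 fell 14.9-fold and SERPINB8 on chromosome 18 fell 8.04-fold. Normalized counts are counts scaled by upper quartile factors to the mean library. In these bulk samples, fewer cells of a type and less RNA per cell cannot be told apart.

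RefSeq promoter windows (GRCh38.p14, the build hg38, with 250 bases before and 50 after a gene's start) were found for all 7 genes, and the window at the start of the GENCODE 44 canonical transcript was read, since RefSeq lists 3 windows for SERPINB7 and 4 for SERPINB6. The letters TGANTCA, which take in the AP-1 site TGAGTCA, were searched on both strands and are in 7.71% of 35116 such windows. They are in the window of all 4 chromosome 18 genes and of none of the 3 chromosome 6 genes. The matches begin 146 bases before the start of SERPINB5, 154 and 39 bases before that of SERPINB7, 102 bases before that of SERPINB2, and 185 and 28 bases before that of SERPINB8. Both SERPINB7 and SERPINB8 hold the letters TGAGTCA, while the match in SERPINB5 and in SERPINB2 reads TGAATCA. These 4 stretches of 200 bases are shown because they hold every match, which stands in capitals. They end at the base before the start and lie on the plus strand, at chr18:63476758-63476957, chr18:63775218-63775417, chr18:63887505-63887704 and chr18:63969881-63970080.
SERPINB5: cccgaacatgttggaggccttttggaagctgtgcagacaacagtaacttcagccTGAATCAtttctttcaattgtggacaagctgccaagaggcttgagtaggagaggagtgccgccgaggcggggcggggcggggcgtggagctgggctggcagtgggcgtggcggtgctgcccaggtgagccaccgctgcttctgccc
SERPINB7: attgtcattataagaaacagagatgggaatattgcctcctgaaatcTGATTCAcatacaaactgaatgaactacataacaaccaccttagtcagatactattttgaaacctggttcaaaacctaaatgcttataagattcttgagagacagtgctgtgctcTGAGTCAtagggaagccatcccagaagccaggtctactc
SERPINB2: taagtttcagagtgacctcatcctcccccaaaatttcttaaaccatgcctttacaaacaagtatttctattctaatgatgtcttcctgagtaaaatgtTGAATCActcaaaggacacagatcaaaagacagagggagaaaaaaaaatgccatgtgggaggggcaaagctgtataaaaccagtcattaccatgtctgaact
SERPINB8: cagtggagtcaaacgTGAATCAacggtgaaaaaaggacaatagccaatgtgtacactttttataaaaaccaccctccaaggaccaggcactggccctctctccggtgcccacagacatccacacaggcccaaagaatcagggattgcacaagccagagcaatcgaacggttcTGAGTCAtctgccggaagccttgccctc
SERPINB13, which lies between SERPINB5 and SERPINB7, has a TGANTCA match as well, 87 bases before its start, while the windows of SERPINB3 and SERPINB4 in the same cluster have none. A match of letters is not a measured binding site.

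The windows of the chromosome 6 genes were rich in CG dinucleotides, the sequence at which human DNA is mostly methylated. SERPINB1 has 27, SERPINB6 32 and SERPINB9 35 of them in 300 bases, against a median of 14 over all windows. On chromosome 18, SERPINB5 has 16, SERPINB8 9, SERPINB2 1 and SERPINB7 0. The letters GGGCGG, the GC box, were searched on both strands and are in 45.0% of all windows. They occur in the windows of SERPINB1, SERPINB6, SERPINB9 and SERPINB5, and in none of the other 3, and each such match adds 1 to the CG count. The letters TATAAA, searched on both strands and present in 11.5% of all windows, begin 30 bases before the start in both SERPINB2 and SERPINB9, and 142 and 140 bases before it in SERPINB8. SERPINB1 and SERPINB9 are shown because they are the neighbours whose transcripts differed most within the cluster. Each stretch of 200 bases holds 20 CG dinucleotides, while the windows of 300 bases hold 27 and 35. Whether CG content bears on the transcripts was not tested. The CG dinucleotides are in capitals, and the stretches lie on the minus strand at chr6:2841864-2842063 and chr6:2903310-2903509.
SERPINB1: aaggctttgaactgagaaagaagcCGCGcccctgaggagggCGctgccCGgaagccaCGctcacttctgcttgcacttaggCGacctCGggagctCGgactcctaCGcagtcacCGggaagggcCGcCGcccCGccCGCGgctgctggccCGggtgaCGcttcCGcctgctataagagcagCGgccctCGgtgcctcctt
SERPINB9: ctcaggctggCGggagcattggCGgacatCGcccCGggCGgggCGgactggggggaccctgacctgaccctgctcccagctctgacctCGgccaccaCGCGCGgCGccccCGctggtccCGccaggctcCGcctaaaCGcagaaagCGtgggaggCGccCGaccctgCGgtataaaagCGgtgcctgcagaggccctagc

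Some libraries and markers need to be stated before the single genes. Replicates 2 and 3 of each group were closer to each other (chi-square per degree of freedom 2.45 in Control sh and 2.32 in VprBP sh) than to replicate 1 (16.1 to 26.6). DCAF1 itself went from 869 ± 91 to 583 ± 154 normalized counts (SD, n = 3), or -0.58 on the log2 scale with 0.17 as its standard error (edgeR, adjusted p = 0.0125). Its counts were 688, 893 and 884 in the Control sh samples and 681, 488 and 628 in the VprBP sh samples, and VprBP sh replicate 1 was the nearest to Control sh. Of 8 melanocyte markers, 5 were in the table, and their summed normalized counts ranged from 235 to 287 among Control sh samples and from 310 to 395 among VprBP sh samples. MLANA, a defining marker, had counts of 1, 1 and 2 in the Control sh samples against 4, 1 and 5 in the VprBP sh samples. All 7 markers of stratified squamous epithelium (KRT14, KRT6A, KRT16, IVL, SPRR1B, TP63 and DSG3) were called lower in VprBP sh, and their summed normalized counts ranged from 115400 to 124400 among Control sh samples and from 117 to 146 among VprBP sh samples. DSG3 was at 0 in every VprBP sh sample. Of 9 urothelial markers, 6 were tested, and 3 were called lower and 2 higher. Their sum went from 93810 to 105200 down to 25090 to 28540. Most of this sum was KRT5, with means of 64990 in Control sh and 3488 in VprBP sh, and KRT7, with 35080 and 21580. KRT7 was not called. Among the urothelial markers GATA3, a transcription factor of urothelium, had counts of 7, 1 and 0 in the Control sh samples against 1580, 1334 and 1873 in the VprBP sh samples. Of lymphoid and myeloid, fibroblast and endothelial markers, 7 were tested, with 1, 2 and 2 called lower and 0 higher. Beside all these marker counts, 22.0% of all genes tested were called lower and 24.5% higher. KRT14, KRT6A, SPRR1B, TP63, DSG3, UPK1B, COL1A2, LUM, CDH5 and VWF were kept by a filter on low counts through Control sh alone. They could only be called lower, and GATA3, kept through VprBP sh alone, could only be called higher. The squamous markers were lower along with the serpins, while the urothelial markers went both ways. KRT5, UPK1B and UPK2 were called lower, and GATA3 and PPARG higher. The part of the squamous and urothelial markers in the results was not tested. Whether the groups come from the same cell line was not tested either, and a difference between lines and an effect of the shRNA cannot be told apart in any comparison given here. Mitochondrial genes took 4.10% to 4.48% of counts in VprBP sh, against 1.96% to 1.98%.

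**Figure D1:**
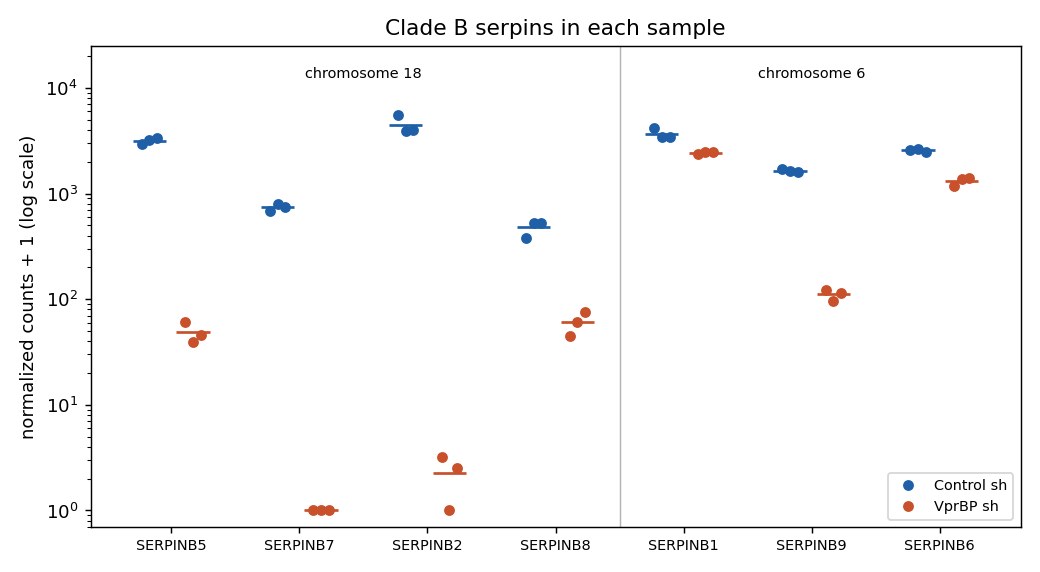
Normalized counts plus 1 (log scale) of the 7 clade B serpins, with a point for each sample and a line at the mean of each group of 3 samples. The VprBP sh points lie below the Control sh points for every gene, at 0 counts for SERPINB7 and close to the Control sh points for SERPINB1 and SERPINB6.

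Calls needed both a fold change over 2 and an adjusted p (Benjamini-Hochberg) under 0.05. By this rule 5 of the 7 serpins were called lower in VprBP sh by edgeR's quasi-likelihood test, and 0 were called higher, where 22.0% of the 16756 genes tested were called lower, 24.5% higher and 46.4% in either direction. The other 2, SERPINB1 and SERPINB6, had an adjusted p under 0.05 at a smaller fold, so that 7 of 7 were lower at that threshold, against 36.0% of all genes lower and 76.4% in either direction. The VprBP sh values lay below all Control sh values for 7 of the 7 genes and for 37.3% of all genes tested, and 79.5% of genes did not overlap in one direction or the other. All 7 passed the filter on low counts, SERPINB2 and SERPINB7 through their Control sh counts alone, so that these 2 could only come out lower. SERPINB2 and SERPINB7 averaged over 100 normalized counts in Control sh yet never exceeded 3 counts in VprBP sh, as did 2.43% of all genes. The median log2 fold change was -3.89 over the 7 genes and 0.08 over all genes tested.

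SERPINB2 encodes plasminogen activator inhibitor 2, which inhibits urokinase and tissue plasminogen activator. It lies at chr18:63871692-63903888 (hg38, plus strand, 8 exons in its canonical transcript). It had counts of 4795, 3586 and 4244 in the Control sh samples against 2, 0 and 2 in the VprBP sh samples. No VprBP sh sample exceeded the 3 counts taken as the limit of detection, while Control sh replicate 1 was the highest of its group also after scaling, at 5558 against 3898 and 4024 normalized counts. From the summed counts, expression was 3520-fold higher in Control sh (95% interval 1370 to 12900, exact binomial, counting error only; adjusted p = 2.52e-09 from edgeR). SERPINB2 shares 6715 bases with SERPINB10 on the same strand, and reads of that stretch could have been split between them.

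SERPINB7, also called megsin, lies at chr18:63752935-63805376 (plus strand, 8 exons). The Control sh samples held 592, 736 and 794 counts of it, and each VprBP sh sample held 0. Set against 3 counts in each VprBP sh library, its level was at least 255-fold higher in Control sh (746 ± 57 normalized counts, SD, n = 3; adjusted p = 3.53e-08 from edgeR). It was thus undetected in VprBP sh at a depth where 3 counts correspond to 2.30 to 3.35 normalized counts.

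SERPINB5 encodes maspin, a serpin without known protease inhibition that was described as a tumour suppressor in epithelia. It lies at chr18:63476958-63505085 (plus strand, 7 exons). Its counts were 2523, 2942 and 3522 in the Control sh samples against 54, 37 and 58 in the VprBP sh samples. The groups did not overlap, and every VprBP sh sample stayed above the detection limit. The means were 3154 ± 211 and 47.7 ± 11.3 normalized counts (SD, n = 3), a 66.1-fold difference and a log2 fold change of -6.05, with 0.15 as its standard error (edgeR, adjusted p = 1.69e-09).

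SERPINB8, an inhibitor of furin, lies at the far end of the cluster at chr18:63970029-64019779 (plus strand, 7 exons). Its counts were 327, 489 and 551 in the Control sh samples against 39, 58 and 97 in the VprBP sh samples, the smallest fold among the 4 chromosome 18 genes. The means were 478 ± 86 and 59.4 ± 15.4 normalized counts (SD, n = 3), an 8.04-fold difference and a log2 fold change of -2.99, with 0.22 as its standard error (edgeR, adjusted p = 1.19e-06). Its first 11746 bases overlap HMSD on the same strand, a gene with 10, 11 and 18 counts in the Control sh samples that was at 0 throughout VprBP sh.

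SERPINB9, the inhibitor of granzyme B that shields cells from cytotoxic granules, had the largest fold change of the 3 genes on chromosome 6. It lies at chr6:2887270-2903309 (minus strand, 7 exons) and had counts of 1471, 1493 and 1699 in the Control sh samples against 109, 92 and 149 in the VprBP sh samples. Its values varied little within either group, at 1646 ± 51 and 110 ± 13 normalized counts (SD, n = 3). This was a 14.9-fold difference and a log2 fold change of -3.89, with 0.12 as its standard error (edgeR, adjusted p = 5.04e-09).

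SERPINB6, an inhibitor of cathepsin G and thrombin that is expressed in many tissues, lies at chr6:2948159-2972165 (minus strand, 7 exons). Its counts were 2210, 2406 and 2639 in the Control sh samples against 1057, 1335 and 1817 in the VprBP sh samples. After scaling the groups stood apart, at 2560 ± 57 and 1320 ± 121 normalized counts (SD, n = 3). The log2 fold change of -0.95, with 0.09 as its standard error (edgeR, adjusted p = 7.04e-06), fell just short of 2-fold, and it passed 2-fold with TMM factors (-1.05), with DESeq2 (-1.08) and with replicates 2 and 3 of each group summed (-1.003).

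SERPINB1, an inhibitor of neutrophil elastase, proteinase 3 and cathepsin G, changed least. It lies at chr6:2832332-2841959 (minus strand, 7 exons) and had counts of 3609, 3154 and 3647 in the Control sh samples against 2104, 2393 and 3231 in the VprBP sh samples, so that the raw counts of the groups overlapped. The normalized counts did not overlap, at 3690 ± 428 and 2437 ± 77 (SD, n = 3). The log2 fold change was -0.60, with 0.10 as its standard error (edgeR, adjusted p = 0.000282), and 30.1% of all genes tested had a value as low or lower.

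The ratio of genes within a sample does not depend on the scaling. SERPINB9 over SERPINB1 was 0.408, 0.473 and 0.466 in Control sh and 0.0518, 0.0384 and 0.0461 in VprBP sh (exact two-sided permutation test p = 0.1, the smallest that 3 samples against 3 allow). SERPINB6 over SERPINB1 was 0.612, 0.763 and 0.724 in Control sh and 0.502, 0.558 and 0.562 in VprBP sh, closer together but again without overlap (exact p = 0.1). SERPINB9 over SERPINB6 was 0.666, 0.621 and 0.644 in Control sh and 0.103, 0.0689 and 0.082 in VprBP sh (exact p = 0.1). All 3 ratios were lower in VprBP sh without overlap, and none of the tests could have passed 0.05.

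**Figure D2:**
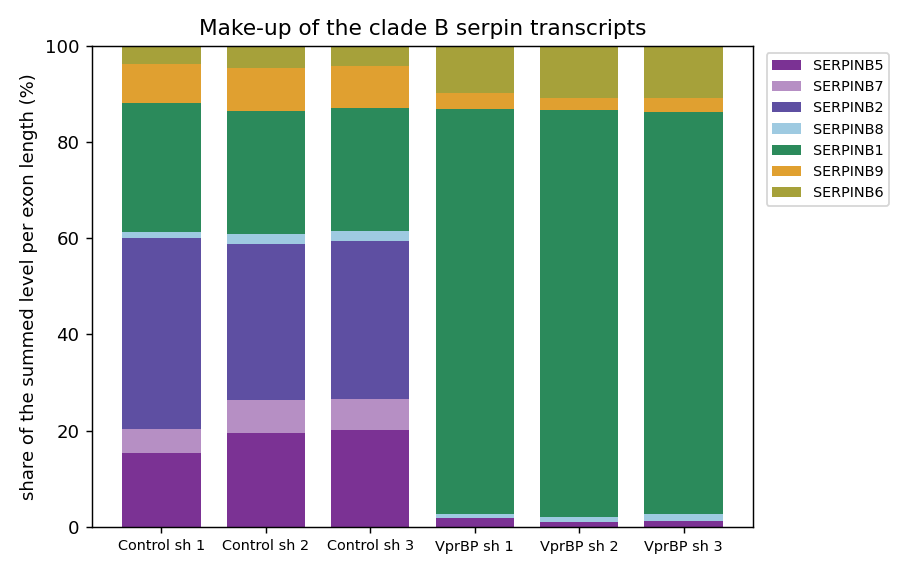
Share of each gene (percent) in the summed level per exon length of the 7 clade B serpins, as a stacked bar for each sample. SERPINB2, SERPINB1 and SERPINB5 make up most of each Control sh bar, and SERPINB1 makes up 83.7% to 84.6% of each VprBP sh bar.

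Levels of different genes were compared per length, as normalized counts per kilobase of annotated exons. In Control sh the order was SERPINB2 (1639 ± 337, SD, n = 3), SERPINB1 (1211 ± 140), SERPINB5 (843 ± 56), SERPINB9 (397 ± 12), SERPINB7 (283 ± 22), SERPINB6 (194 ± 4.3) and SERPINB8 (82.9 ± 14.9), and no neighbours in this order overlapped. In VprBP sh the order was SERPINB1 (800 ± 25), SERPINB6 (99.99 ± 9.19), SERPINB9 (26.7 ± 3.2), SERPINB5 (12.8 ± 3.0) and SERPINB8 (10.3 ± 2.7), then SERPINB2 and SERPINB7 at or near 0. The values of SERPINB5 and SERPINB8 overlapped there, as did those of SERPINB2 and SERPINB7. The place of SERPINB6 depends on the length used, since its exons add up to 13201 bases over all transcripts but its longest transcript has 5620 bases. With the latter, SERPINB6 reached 456 per kilobase in Control sh and ranked above SERPINB9 (397) and SERPINB7 (340).

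The summed level per length of the 7 genes in VprBP sh was 20.4% of that in Control sh, and its make-up changed. The share of SERPINB1 went from 26.0% ± 0.74 to 84.2% ± 0.46 (SD, n = 3) while its own level went down. SERPINB2 went from 35.0% ± 4.0 to 0.0489% ± 0.0452, and SERPINB5 from 18.3% ± 2.6 to 1.35% ± 0.37. Of the chromosome 6 genes, SERPINB6 went from 4.19% ± 0.37 to 10.5% ± 0.63 and SERPINB9 from 8.57% ± 0.46 to 2.81% ± 0.41. With the longest transcript as length, the share of SERPINB1 was 24.3% in Control sh and 76.8% in VprBP sh.

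**Figure D3:**
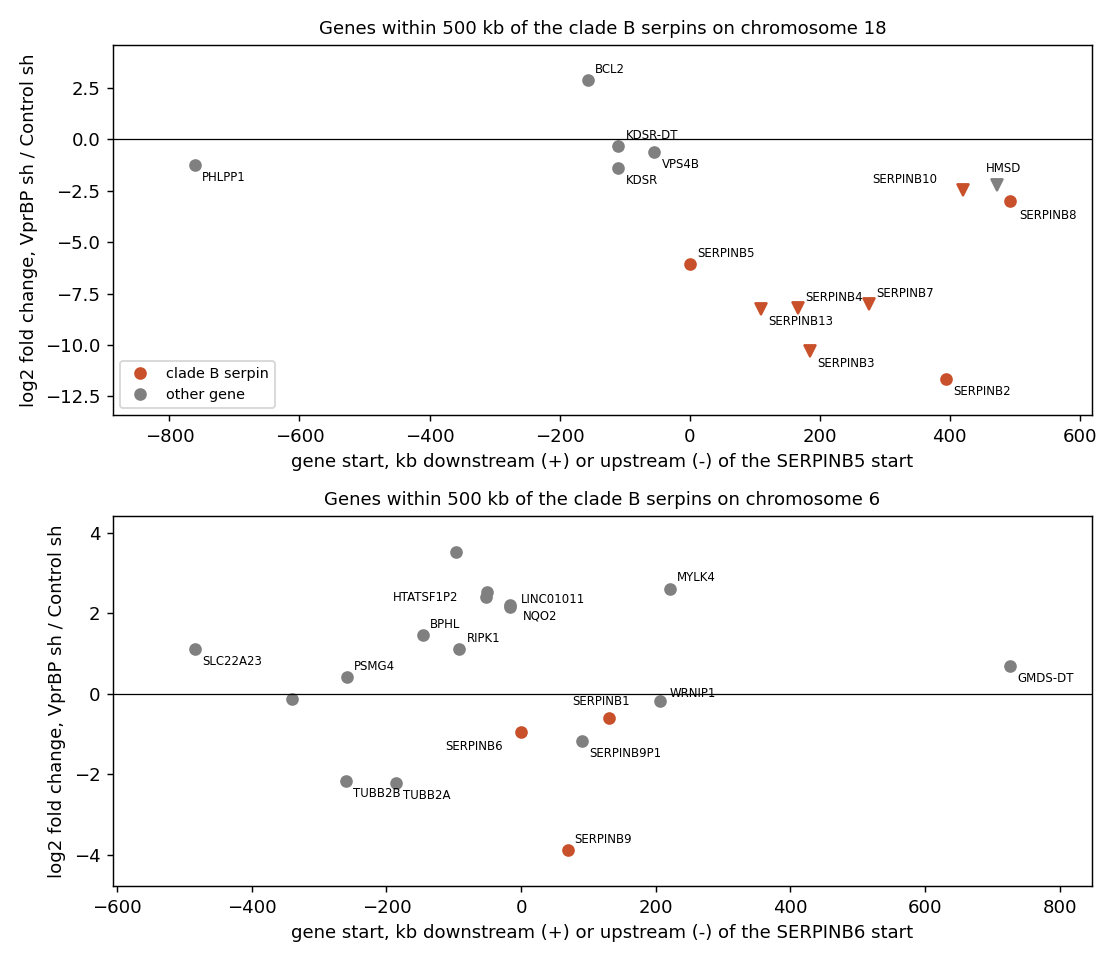
Log2 fold change of the tested genes within 500 kb of the 7 clade B serpins on chromosomes 18 and 6, against the distance (kb) of each gene's start from that of SERPINB5 or SERPINB6. Triangles are genes at 0 counts in every VprBP sh sample, drawn at their bound. On chromosome 18 every clade B serpin lies below every other gene not drawn at a bound. HMSD, a triangle among the other genes, cannot be ranked against the serpins. On chromosome 6 the serpins lie among genes that rose and fell.

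On chromosome 18, every gene of the table between the start of SERPINB5 and the end of SERPINB8 was called lower, a stretch of 542.8 kb with 9 genes. Besides the 4 genes above these were SERPINB3, SERPINB4, SERPINB10, SERPINB13 and HMSD, and on the whole chromosome 23.5% of 234 genes tested were called lower. All of them but SERPINB5 and SERPINB8 never exceeded 3 counts in VprBP sh and passed the filter on low counts through Control sh alone, so that they could only be called lower. SERPINB3, an inhibitor of cysteine cathepsins, had 2275, 3831 and 4312 counts in Control sh, SERPINB4 had 555, 828 and 1095, SERPINB13 had 568, 898 and 1085, and SERPINB10 had 12, 14 and 21. Each of these 4 had 0 counts in all VprBP sh samples. Control sh replicate 1 was the lowest of its group for all of them, as it was for SERPINB5, SERPINB7 and SERPINB8. SERPINB3 was at least 1242-fold higher in Control sh, SERPINB13 at least 304-fold, SERPINB4 at least 294-fold and SERPINB10 at least 5.59-fold (adjusted p from 9.76e-08 to 0.000124, edgeR). SERPINB3 and SERPINB4 are near-identical copies, so that the division of reads between them is uncertain.

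Of the 5 flanking genes on this chromosome, 2 were called lower and 1 higher, against 23.5% and 26.9% of 234 genes tested on the whole chromosome. VPS4B, an ATPase of membrane sorting whose start lies 54.5 kb upstream of SERPINB5, had a log2 fold change of -0.62, with 0.085 as its standard error (edgeR, adjusted p = 9.83e-05), which is under 2-fold. KDSR, an enzyme of sphingolipid synthesis, was called lower at -1.39, as was PHLPP1, a phosphatase that acts on AKT, at -1.22, and BCL2, the inhibitor of apoptosis 156.8 kb upstream, was called higher at 2.87. On chromosome 6, 16 of 19 neighbours were tested, of which 9 were called higher and 3 lower, against 25.6% and 20.3% of 864 genes on the whole chromosome. Among those called higher, HTATSF1P2, ENSG00000272277 and ENSG00000288612 passed the filter on low counts through VprBP sh alone, so that they could only be called higher. NQO2, a quinone reductase 15.8 kb upstream of SERPINB6, went from 189 to 864 normalized counts, a log2 fold change of 2.20 (adjusted p = 1.18e-07 from edgeR). RIPK1, a kinase of cell death signalling, was called higher at 1.10. Of the 3 lower genes, SERPINB9P1, a pseudogene annotated as a lncRNA between SERPINB1 and SERPINB9, went from 476 to 210 normalized counts, and the others were the tubulins TUBB2A and TUBB2B.

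**Figure D4:**
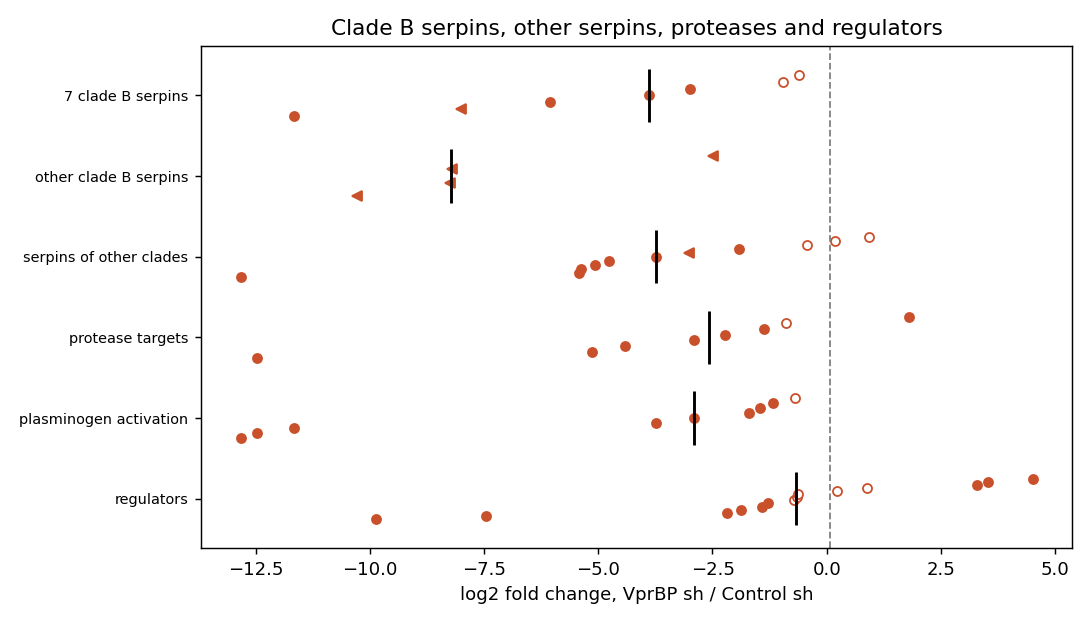
Log2 fold change of the 7 clade B serpins and of 5 related gene lists, with a point for each tested gene, filled where called, and a triangle for genes at 0 counts in every VprBP sh sample, drawn at their bound. Black lines are medians, and the dashed line is the median of all genes tested, 0.08.

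Of 14 proteases that clade B serpins are known to inhibit, 8 were tested, and 6 were called lower and 1 higher, where 22.0% of all genes were called lower and 24.5% higher, with a median log2 fold change of -2.57 against 0.08 for all genes. Those inhibited by SERPINB2 were both lower. Of these, PLAT passed the filter on low counts through Control sh alone, so that it could only be called lower. PLAU, which encodes urokinase, had counts of 7760, 7044 and 7964 in the Control sh samples against 639, 1146 and 1708 in the VprBP sh samples (log2 fold change -2.91, adjusted p = 9.53e-07 from edgeR), and PLAT, which encodes tissue plasminogen activator, had 6343, 5042 and 5721 counts and 0, 0 and 3 counts. FURIN, the target of SERPINB8, went from 1696 ± 239 to 650 ± 6.3 normalized counts (SD, n = 3), or -1.38 on the log2 scale (edgeR, adjusted p = 2.67e-06). KLK8, a skin protease that SERPINB6 inhibits, went from 1443 ± 182 to 42.3 ± 25.4 normalized counts. Of the cathepsins that SERPINB3 inhibits, CTSS (-4.41) and CTSV (-2.23) were called lower and CTSK (1.81) higher, and CTSL (-0.89, adjusted p = 0.000154 from edgeR) did not reach 2-fold, though it was called in 2 of 14 alternatives. ELANE, PRTN3, CTSG, GZMB, F2 and PLG are not in the table of genes, so that no listed target of SERPINB1 or SERPINB9 could be set beside its inhibitor.

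In the list of plasminogen activation, which holds SERPINB2, PLAU, PLAT and SERPINE2 among others, 8 of the 9 genes tested were called lower and 0 higher, against 22.0% and 24.5% of all genes, with a median of -2.91. PLAUR, the urokinase receptor, went from 1379 ± 242 to 425 ± 5.3 normalized counts (SD, n = 3), and ANXA2 and S100A10, which form a receptor for plasminogen, had log2 fold changes of -1.46 and -1.18 (adjusted p = 4.09e-07 and 3.66e-07 from edgeR). PLGRKT, another plasminogen receptor, had a log2 fold change of -0.68 and was not called. Among the genes called, SERPINB2 and PLAT passed the filter on low counts through Control sh alone, so that they could only be called lower.

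All 14 factors listed as regulators of clade B serpins were tested, and 6 were called lower and 3 higher, with a median log2 fold change of -0.68. Over all genes 22.0% were called lower, 24.5% higher and 46.4% in either direction, so that the share of higher calls was near the background. TP63, the master factor of stratified epithelium, had counts of 8715, 7670 and 8806 in the Control sh samples against 9, 8 and 13 in the VprBP sh samples. Kept by the filter on low counts through Control sh alone, it could only be called lower. The genes of AP-1 subunits went both ways. FOSL1 had counts of 3179, 3166 and 3471 in the Control sh samples against 35, 10 and 16 in the VprBP sh samples, with a log2 fold change of -7.46 and of -8.23 without VprBP sh replicate 1. FOS had counts of 1057, 414 and 542 in the Control sh samples against 13372, 3104 and 4363 in the VprBP sh samples, where replicate 1 of each group was the highest, and its log2 fold change of 3.30 was 2.18 without VprBP sh replicate 1. FOSB was called higher at 4.52, which was 3.21 without that sample, FOSL2 was called lower at -1.28, and JUN (0.23, and -0.37 without that sample), JUNB (-0.64) and JUND (0.88) were not called. ETS1 (-2.19), IRF1 (-1.88) and TP73 (-1.41) were called lower, and NFKB1 (-0.71) and RELA (-0.65) were not called. Whether any of these factors bears on the serpins was not tested.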

How the data were processed

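RNA-seq of 3 Control sh and 3 VprBP sh samples was analysed, grouped and numbered as in the sample titles. The authors aligned single-end reads to hg38 with STAR 2.6.1d and deposited estimated counts per gene, which are neither normalized nor pooled (59.4% are whole numbers), and the submitters' notes name Partek. The row of every gene sums to 10 or more. The labels name a SMARTER kit and the study's methods a strand-specific KAPA kit, and whether counting used strand is not given in the sources used here.

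The design assumed counts, so the estimated counts were rounded to whole numbers. They were fitted with edgeR 4.0.16 (R 4.3.3) by its quasi-likelihood test over all 6 samples, with upper quartile factors (quantile 0.75), a filter with a minimum count of 10 and Benjamini-Hochberg adjustment over 16756 genes. A standard error was taken as the size of the log2 fold change over the root of its F value. Folds against a group at 0 used 3 counts per library and are lower bounds, and such floors and counting intervals cover counting error only. The last base of a gene was taken as the one before the end position in the table, as in 93.5% of genes matched to GENCODE 44, which also gave exon lengths. Promoter sequences came from RefSeq.

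The text names the 7 serpins, DCAF1 and genes from fixed lists (other clade B serpins, serpins of other clades, protease targets, plasminogen activation, regulators, neighbours within 500 kb, cell type markers). Some listed genes are counted with their list but not reported here singly. The serpins and lists were chosen with earlier results of these data known. Alternatives were TMM factors, library size alone, DESeq2 1.42.0, limma-voom 3.58.1, no filter, a stricter filter, a replicate block, leaving out each sample, and replicates 2 and 3 summed. The fits were tested on simulated data.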

Additional observations from a re-analysis of the deposited data

How the results depend on the processing

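The 5 calls of the 7 serpins (SERPINB2, SERPINB5, SERPINB7, SERPINB8 and SERPINB9) were made in every one of the 14 alternatives in which the gene was fitted, and the log2 fold change was below 0 for each of the 7 genes in all of them. SERPINB1 ranged from -0.72 to -0.38 and was never called, and SERPINB6 ranged from -1.08 to -0.74 and was called in 3. Requiring 10 or more counts in each sample dropped SERPINB2 and SERPINB7, which left 3 of 5 serpins called with a median of -2.98, and 4690 of 13103 genes called against 7778. Library size alone moved the median of the 7 serpins from -3.89 to -3.68 and that of all genes by 0.21 on the log2 scale, to 0.29, and called 1 of the serpins of other clades higher, where 0 were called with upper quartile factors. Leaving out each sample gave 5 calls each time, with a median of -3.96 to -3.81. With lengths of the longest transcripts the summed level of the 7 genes in Control sh was 6129 per kilobase against 4650. DCAF1 ranged from -0.82 to -0.46 on leaving out a sample, and its adjusted p from edgeR was 0.0851 with library size alone and 0.0839 with replicates 2 and 3 summed. RIPK1, S100A10 and SERPINB9P1, near the 2-fold limit, were each called in 13 of 14.

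The pairing by replicate number was examined through the deviations of samples from the mean of their group, which correlated between the groups at -0.145, -0.0298 and -0.106 for replicates 1, 2 and 3, so that they share only a number, and 0 of 3 correlated best with their own. The fit with a replicate block called the same number of serpins, 5, with a median of -3.90, and 7686 genes. DCAF1 was at -0.60 in it (adjusted p = 0.0274 from edgeR).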

Other observations

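Most tested serpins of other clades, which are largely secreted proteins, were lower in VprBP sh as well. Of 21 listed, 11 were tested, and 8 were called lower and 0 higher by edgeR's quasi-likelihood test, against 22.0% and 24.5% of all genes tested, with a median log2 fold change of -4.77, or of -3.74 with SERPINA10, which had 0 counts in VprBP sh, at its bound. SERPINE2, protease nexin 1, went from 813 ± 138 to 61.6 ± 17.5 normalized counts (SD, n = 3). SERPING1, the inhibitor of complement C1, had counts of 5858, 3970 and 4561 in the Control sh samples against 72, 117 and 198 in the VprBP sh samples, or -5.42 on the log2 scale with 0.26 as its standard error (edgeR, adjusted p = 8.1e-08). SERPINH1, a collagen chaperone of the endoplasmic reticulum that inhibits no protease, had 1837 ± 59 and 2075 ± 154 normalized counts and was not called (log2 fold change 0.18, adjusted p = 0.0818 from edgeR). SERPINA1, SERPINA5 and SERPINI1, with at most 54 counts in any sample, were called lower at -4.77, -5.37 and -5.08, values that were -5.50 and -7.10 for the first pair without VprBP sh replicate 3 and -6.93 for SERPINI1 without VprBP sh replicate 1. SERPINA3 (0.92) and SERPINF2 (-0.43) were not called either.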
